A study of Homo sapiens with 14 samples.

Results

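The 2 control populations of MV4;11 cells were compared, the EV control that stands beside EZH2 depletion by shRNA and the sgEV control that stands beside cMyc knockout by sgRNA. MV4;11 is a human myelomonocytic leukaemia line that carries the KMT2A-AFF1 fusion. The comparison used every MV4;11 library labelled EV (2 libraries) or sgEV (2 libraries), which is 4 of the 14 libraries of the study. Libraries were taken by label and not by a measured value. The comparison, the gene lists and the tests were nevertheless chosen with earlier results of these data known. The other MV4;11 libraries are shEZH2 (2 libraries) and cMyc knockout with sgRNA 1 or sgRNA 5 (2 libraries each, called libraries labelled sgcMyc), and they served only as a second view of the same contrast. The remaining libraries come from EOL-1 cells and were not used. All MV4;11 groups are given with doxycycline at 1 µg/ml for 4 days in the labels. The labels name the controls only as EV and sgEV, and they state neither the vectors, nor whether the cells were clones or pools, nor whether sgEV cells carried Cas9. Because the EV libraries stand in the table of the shEZH2 comparison and the sgEV libraries in that of the sgcMyc comparison, vector, Cas9, culture, time of preparation and sequencing run cannot be told apart as sources of a difference. The labels do not give separate cultures for the 2 libraries of a control either. The p-values therefore rest on the spread seen between the 4 libraries, part or all of which may be technical.

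An empty control is meant to carry the vector and the drug without a target, so that a hairpin or guide is read against cells handled alike. In leukaemia lines such as MV4;11, several expression programmes respond to how cells are kept. The transcription factor ATF4 raises amino acid synthesis and transport genes when amino acids run short or the endoplasmic reticulum is stressed. HIF factors raise glycolysis genes in low oxygen, SREBP factors raise cholesterol synthesis genes when sterols are low, and MAPK signalling raises immediate early genes. These programmes, the cell cycle and the myeloid differentiation genes are described below for the 2 controls.

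The EV libraries held 15771077 and 15034563 gene counts and the sgEV libraries 13313056 and 13342499. Values are estimated counts per gene that the authors deposited, and levels are given in CPM, library-scaled counts (TMM). A level in CPM is not divided by transcript length, so levels are compared between libraries and never between genes. Added spike-in RNAs took 1.202% and 1.301% of all counts in EV and 1.223% and 1.245% in sgEV. Log2 fold changes are EV minus sgEV and stand as value ± SE, with n = 2 libraries a group, and adjusted p-values come from edgeR's quasi-likelihood test with Benjamini-Hochberg adjustment over all genes tested. A permutation of 2 against 2 libraries cannot go below p = 0.333, so no permutation p is given for a gene. Myeloid marker genes were present in both controls: 13 of 14 listed markers have rows, all 13 were tested and none was at 0, with a summed level of 2205 and 2227 CPM in EV and 2630 and 2626 CPM in sgEV. CD14 has no row. Listed markers of fibroblasts have no row, and those of eosinophils (2 of 7 with a row) summed to 0.317 and 0.0676 CPM in EV and 0.448 and 1.27 CPM in sgEV.

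The controls differed at 7297 of 13641 genes tested (53.5%), with 3594 higher in EV (26.3%) and 3703 lower (27.1%). Most of these differences were small. The median absolute log2 fold change was 0.47 over the called genes and 0.30 over all genes tested, and 1365 genes (10.0%) were called and at least 2-fold apart. Large differences were unevenly split: 236 genes (1.73%) were at least 2-fold higher in EV and 1129 (8.28%) at least 2-fold lower, and at least 8-fold there were 32 higher and 199 lower. Over 10785 genes with a mean of at least 50 counts, the median absolute log2 difference was 0.0868 between the EV libraries and 0.0624 between the sgEV libraries, while the 4 pairs of an EV with an sgEV library gave 0.26 to 0.29. Among 39 spike-in RNAs with a mean of at least 50 counts the same pairs gave 0.0524 to 0.0722, close to the 0.0548 between the EV and 0.0515 between the sgEV libraries. The EV libraries did not overlap the sgEV libraries for 76.4% of the genes tested. Most genes named below were chosen by a small p or a large difference, so non-overlap in them follows largely from that choice. Of 52 spike-in RNAs tested, 1 was called (1.92%). It was ERCC-00143, with 149 and 157 counts in EV against 93 and 91 counts in sgEV (0.50 ± 0.11, adjusted p = 0.00746), and no spike-in RNA was called by DESeq2, where 3 had an unadjusted p under 0.05. In simulated libraries of this size the test recovered 85.07% of genes changed 2-fold and called 11 of 13365 unchanged genes. The simulation left most of its 13565 genes unchanged, changed the others equally in both directions and gave all genes 1 common spread. It therefore differs from these data and does not measure the error among the 7297 calls.

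**Figure D1:**
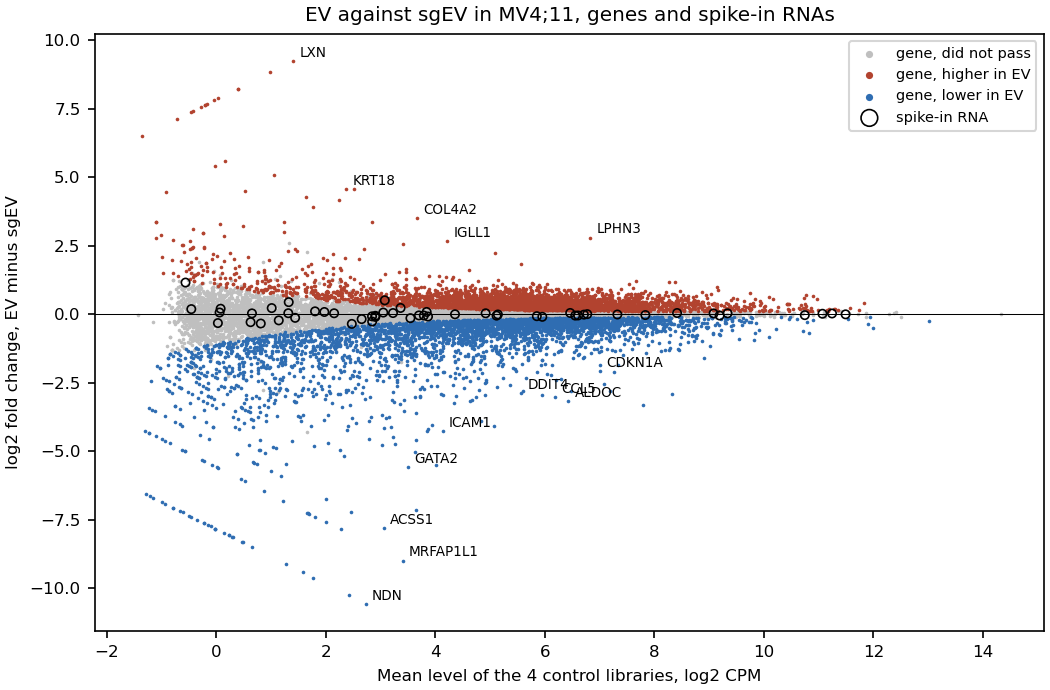
Log2 fold change (EV minus sgEV) of each of 13641 genes against the mean level of the 4 control libraries in log2 CPM. Genes higher in EV are red, genes lower in EV are blue, and the 52 spike-in RNAs (open circles) lie mostly near 0, with 1 called. The blue points hold more of the large differences, 1129 genes at least 2-fold lower against 236 at least 2-fold higher.

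The genes that the study targets also differed between its controls. EZH2, the histone H3 lysine 27 methyltransferase of PRC2, had 74.4 and 77.4 CPM in EV against 55.9 and 52.5 CPM in sgEV (0.49 ± 0.06, adjusted p = 4.48e-06). MYC, the growth regulator, had 581 and 596 CPM in EV against 654 and 657 CPM in sgEV (-0.16 ± 0.04, adjusted p = 0.00375). For both genes the control libraries did not overlap (as for 76.4% of all genes tested), with EZH2 higher and MYC lower in EV. The MYC call was lost without sgEV library 1 (adjusted p = 0.111) or sgEV library 2 (adjusted p = 0.127). Of 14 tested PRC2 subunits and partners 6 were higher in EV and 4 lower (median 0.04), with the histone-binding subunits RBBP7 (0.55) and RBBP4 (0.34) among those higher.

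The amino acid response was, of the 36 lists described, the list whose tested members all differed in 1 direction. All 33 tested genes of the ATF4 list were lower in EV and 0 were higher, with a median log2 fold change of -1.30, against a median of 0.00 and 27.1% lower over all genes. DDIT4, an inhibitor of mTORC1 signalling, had 11.3 and 11.2 CPM in EV against 84.8 and 82.5 CPM in sgEV (-2.89 ± 0.07, adjusted p = 9.43e-14). ALDH1L2, a mitochondrial folate enzyme, had 23.8 and 20.7 CPM in EV against 160 and 149 CPM in sgEV (-2.79 ± 0.07, adjusted p = 9.43e-14). TRIB3, a pseudokinase that ATF4 induces, had 30.4 and 29.8 CPM in EV against 111 and 109 CPM in sgEV (-1.87 ± 0.06, adjusted p = 9.42e-13). For each of the 3 genes both EV libraries lay far below both sgEV libraries, and replicates differed little. The transcript of ATF4 itself was lower too, at 269 and 294 CPM in EV against 562 and 555 CPM in sgEV (-0.99 ± 0.05, adjusted p = 6.5e-11). CEBPB, a transcription factor of stress and of macrophage genes, was also among the leading members (-2.20 ± 0.07, adjusted p = 8.9e-13).

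Placed among all 10 MV4;11 libraries, the sgEV libraries stood apart for this list. With all 10 scaled together, 32 of the 33 genes were higher in both sgEV libraries than in any other MV4;11 library. This held for 14.2% of all genes tested and for 48.3% of those called and at least 2-fold lower in EV. All 33 were already lower in EV than in sgEV, so only their place against the shEZH2 and sgcMyc libraries is further information. The same holds for the placings of other lists below. On that scale DDIT4 had 11.2 and 11.1 CPM in EV, 13.3 and 12.3 in shEZH2 and 9.02 to 10.0 in the 4 libraries labelled sgcMyc, against 84.5 and 82.4 in sgEV. PHGDH, the first enzyme of serine synthesis, had 162 and 170 CPM in EV, 83.3 and 88.0 in shEZH2 and 28.2 to 36.6 in those labelled sgcMyc, against 411 and 418 in sgEV. The asparagine synthetase ASNS had 74.4 and 70.4 CPM in EV, 38.5 and 37.7 in shEZH2 and 16.9 to 20.5 in those labelled sgcMyc, against 188 and 186 in sgEV. For PHGDH and ASNS the EV libraries therefore lay above the shEZH2 and sgcMyc libraries and below sgEV. These placings are descriptions, and how sgEV differs from the libraries labelled sgcMyc was not tested here.

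Genes of glycolysis and hypoxia, cholesterol synthesis and p53 were mostly lower in EV. Of 32 tested glycolysis and hypoxia genes 25 were lower and 2 higher (median -0.67). ALDOC, a fructose bisphosphate aldolase, had 16.1 and 18.4 CPM in EV against 154 and 156 CPM in sgEV (-3.17 ± 0.07, adjusted p = 1.73e-14). NDRG1, a gene induced by hypoxia, had 42.6 and 37.0 CPM in EV against 233 and 228 CPM in sgEV (-2.53 ± 0.06, adjusted p = 5.11e-14). Both EV libraries were thus lower by a wide margin, as they were for the glucose transporter SLC2A3 (-2.19 ± 0.07) and the mitophagy receptor BNIP3L (-1.40 ± 0.05). The main glycolytic enolase ENO1 went the other way by a small amount (0.17 ± 0.04, adjusted p = 0.00267). Under spike-in scaling only 1 gene of the list was higher in EV.

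Cholesterol synthesis genes were lower in EV in 23 of 24 cases and higher in 1 (median -0.79). DHCR7, the last enzyme of cholesterol synthesis, had 55.6 and 56.7 CPM in EV against 201 and 202 CPM in sgEV (-1.84 ± 0.05, adjusted p = 1.74e-13). INSIG1, which holds SREBP in the endoplasmic reticulum and is itself an SREBP target, had 321 and 321 CPM in EV against 709 and 721 CPM in sgEV (-1.16 ± 0.04, adjusted p = 2.39e-12). No EV library overlapped an sgEV library for these genes, as for 76.4% of all genes tested. HMGCS1 (-1.30 ± 0.05) and CYP51A1 (-1.10 ± 0.04), further enzymes of the pathway, were lower as well, and PMVK was the member higher in EV (0.54). In 23 of the 24 genes both sgEV libraries were above all other MV4;11 libraries (14.2% of all genes, 48.3% of those at least 2-fold lower in EV). Of the sterol genes 16 of 24 were also lower in all 4 libraries of the shEZH2 table than in all 6 of the sgcMyc table. Of the ATF4 list 5 of 33 were, against 19.1% of all genes and 74.5% of those at least 2-fold lower in EV.

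Of 32 p53 targets 21 were lower in EV and 3 higher (median -0.45). CDKN1A, the gene of the p21 inhibitor of cyclin-dependent kinases, had 49.0 and 49.0 CPM in EV against 203 and 214 CPM in sgEV (-2.09 ± 0.05, adjusted p = 9.43e-14). BTG2, an antiproliferative gene, had 12.3 and 12.5 CPM in EV against 61.4 and 63.7 CPM in sgEV (-2.33 ± 0.08, adjusted p = 1.27e-12). The stress gene SESN2 (-1.89 ± 0.07), which also stands on the ATF4 list, and the death receptor TNFRSF10B (-0.92 ± 0.06) were lower too. Placed among all 10 libraries, 17 of the 32 genes were lower in both EV libraries than in any other. This held for 9.25% of all genes and 28.3% of those at least 2-fold lower in EV. In 9, all libraries of the shEZH2 table were below all of the sgcMyc table (19.1% and 74.5%). In 6, both sgEV libraries were highest (14.2% and 48.3%). CDKN1A differed by table: on the scale of all 10 libraries it had 48.6 and 48.5 CPM in EV and 48.4 and 52.0 in shEZH2, against 202 and 214 in sgEV and 190 to 206 in those labelled sgcMyc. SESN2 did not: it had 16.1 and 15.4 CPM in EV and 13.9 and 13.3 in shEZH2, against 58.1 and 59.3 in sgEV and 16.7 to 18.7 in those labelled sgcMyc. The libraries labelled sgcMyc thus lay close to EV for SESN2.

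**Figure D2:**
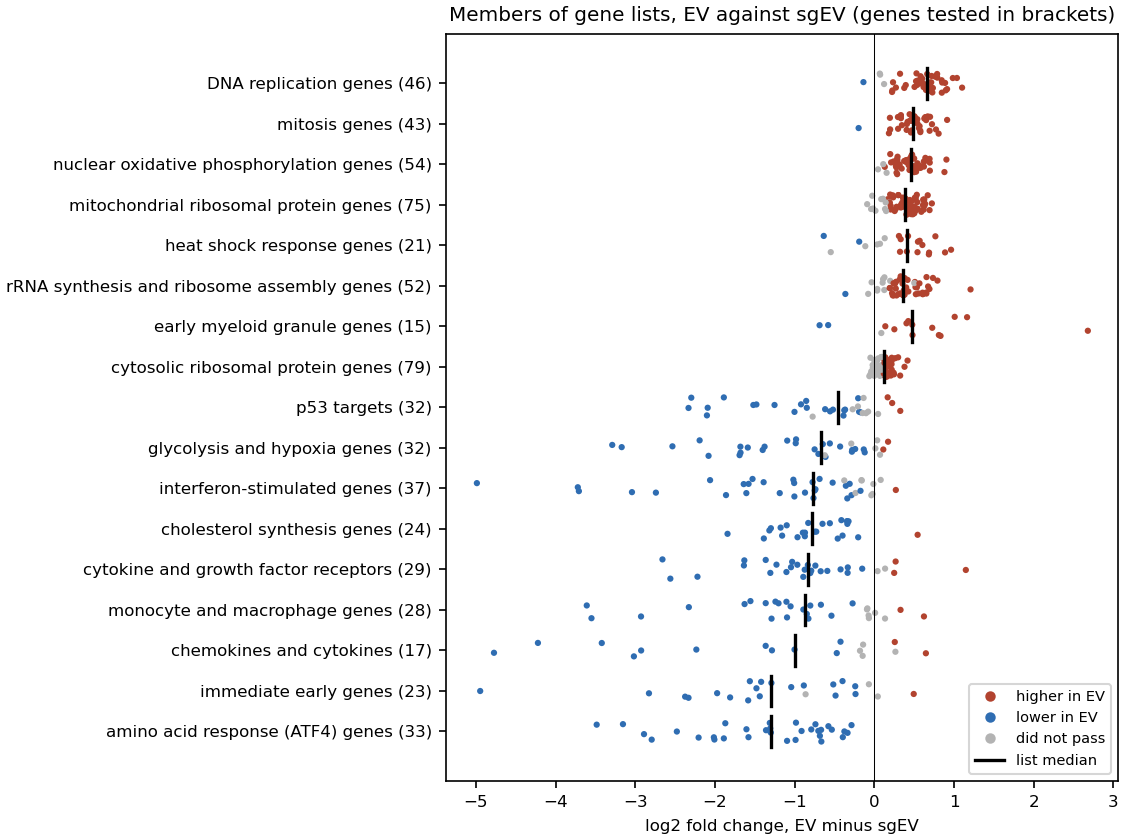
Log2 fold change (EV minus sgEV, horizontal axis) of each tested member of 17 gene lists, with red points higher in EV, blue points lower in EV, grey points that did not pass and a black bar at the list median. The lists of DNA replication, mitosis and nuclear-encoded mitochondrial proteins lie to the right of 0, with medians up to 0.66, and the amino acid response list lies wholly to the left, with a median of -1.30.

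The DNA letters before these genes were read in the RefSeq promoter table, build GRCh38.p14, which spans 250 bases before to 50 bases after a gene start. Where a gene has several entries the first listed was taken, and 9634 of the 13641 genes tested had one. A promoter is shown for each of 3 lists, the member with the smallest p among those holding the known motif of that response. Capitals mark the motif on either strand. CHAC1, a glutathione-degrading enzyme of the ATF4 response, had 5.26 and 4.66 CPM in EV against 44.2 and 44.4 CPM in sgEV (-3.15 ± 0.10), and its promoter (chr15:40953221-40953520, plus strand) holds TGATGNAA, the C/EBP-ATF response element. The promoter of ALDOC (chr17:28576846-28577145, minus strand) holds ACGTG, the core of the hypoxia response element, which also lies in the palindrome CACGTG. That of IFITM1 (chr11:313790-314089, plus strand), an antiviral membrane protein described below, holds the core of the interferon-stimulated response element (ISRE core), a pair of TTTC runs with any 2 bases between them.
CHAC1: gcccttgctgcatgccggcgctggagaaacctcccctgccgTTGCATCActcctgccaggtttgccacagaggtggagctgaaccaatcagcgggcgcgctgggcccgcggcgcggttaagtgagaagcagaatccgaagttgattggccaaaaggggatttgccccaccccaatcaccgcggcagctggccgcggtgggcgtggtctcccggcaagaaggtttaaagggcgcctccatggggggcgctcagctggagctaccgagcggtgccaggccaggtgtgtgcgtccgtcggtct
ALDOC: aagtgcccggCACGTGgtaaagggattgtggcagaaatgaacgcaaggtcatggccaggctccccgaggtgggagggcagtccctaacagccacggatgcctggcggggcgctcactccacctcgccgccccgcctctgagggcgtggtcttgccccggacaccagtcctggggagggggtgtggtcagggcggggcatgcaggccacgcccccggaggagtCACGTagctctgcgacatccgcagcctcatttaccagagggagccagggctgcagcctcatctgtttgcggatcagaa
IFITM1: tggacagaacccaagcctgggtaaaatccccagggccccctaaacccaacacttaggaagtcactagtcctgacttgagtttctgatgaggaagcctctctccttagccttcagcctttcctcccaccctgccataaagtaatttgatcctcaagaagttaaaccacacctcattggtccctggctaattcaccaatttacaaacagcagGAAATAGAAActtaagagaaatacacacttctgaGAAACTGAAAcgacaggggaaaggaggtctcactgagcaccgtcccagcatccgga
TGATGNAA stood in 5 of 26 promoters of the ATF4 list (19.2%), against 1.63% of those of all genes tested and 3.67% of all 27305 promoters in the table. ACGTG stood in 13 of 28 promoters of the glycolysis and hypoxia list (46.4%), against 27.2% of genes tested and 21.6% of the table. The ISRE core stood in 17 of 28 promoters of interferon-stimulated genes (60.7%), against 2.93% and 3.65%. The CArG box, bound by serum response factor, stood in 1 of 18 promoters of immediate early genes (5.56%), against 1.04% and 1.29%. These lists were made of genes known for the responses, and a match describes letters in a window and not a bound site. Among all genes at least 2-fold higher in EV the shares were 4.48% for TGATGNAA, 26.1% for ACGTG and 4.48% for the ISRE core, and among those at least 2-fold lower they were 3.69%, 19.9% and 3.56%.

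Immune and signalling genes were mostly lower in EV. Of 37 interferon-stimulated genes 28 were lower and 1 higher (median -0.76). In 19 of the 37 both sgEV libraries were above all other MV4;11 libraries. This held for 14.2% of all genes and 48.3% of those at least 2-fold lower in EV. Likewise 19 were lower in all libraries of the shEZH2 table than in all of the sgcMyc table (19.1% and 74.5%). These counts can share genes. In 3 both EV libraries were below all others (9.25% and 28.3%). IFITM1 had 73.5 and 82.9 CPM in EV against 159 and 157 CPM in sgEV (-1.02 ± 0.06, adjusted p = 7.34e-10). IFI6, a mitochondrial antiviral factor, had 6.59 and 5.95 CPM in EV against 21.4 and 24.2 CPM in sgEV (-1.86 ± 0.12, adjusted p = 3.12e-09), and OAS2, a sensor of double-stranded RNA, differed likewise (-1.53 ± 0.12). Both EV libraries were below both sgEV libraries for these genes. The member higher in EV, UBE2L6, was no longer called under spike-in scaling.

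Of 23 immediate early genes 19 were lower in EV and 1 higher (median -1.29). EGR1, a zinc finger transcription factor of the growth factor response, had 17.2 and 17.6 CPM in EV against 66.8 and 69.5 CPM in sgEV (-1.97 ± 0.07, adjusted p = 3.79e-12). FOS, a subunit of AP-1, had 49.1 and 54.0 CPM in EV against 144 and 144 CPM in sgEV (-1.48 ± 0.06, adjusted p = 8.72e-12). PIM1, a kinase gene that STAT5 activates downstream of FLT3, had 68.4 and 70.3 CPM in EV against 256 and 250 CPM in sgEV (-1.87 ± 0.05, adjusted p = 9.43e-14). In all 3 genes the EV libraries were the lower pair without overlap (76.4% of all genes tested had no overlap). PIM1 belongs to a list of MAPK and STAT5 feedback genes with 12 of 17 lower and 1 higher (median -0.77), which also holds the phosphatase DUSP6 (-0.77 ± 0.06) and the ETS factor ETV5 (-0.98 ± 0.06).

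Genes of differentiated monocytes and macrophages were lower in EV in 20 of 28 cases and higher in 2 (median -0.87). In bulk RNA, fewer cells of a type and less RNA per cell cannot be told apart. FCER1G, the signalling chain of Fc receptors, had 16.5 and 17.1 CPM in EV against 81.5 and 87.0 CPM in sgEV (-2.33 ± 0.07, adjusted p = 7.47e-13). NCF1, an oxidase subunit with near-identical copies in the genome, had 3.55 and 4.39 CPM in EV against 29.1 and 31.2 CPM in sgEV (-2.93 ± 0.12, adjusted p = 2.16e-11). The chemokine receptor CCR2 (-1.36 ± 0.07) and the integrin ITGAX, CD11c (-3.61 ± 0.15), were lower as well. Cytokine and growth factor receptors were lower in 24 of 29 cases and higher in 3 (median -0.83), including the macrophage receptor CSF1R (-1.10 ± 0.06) and the interleukin 3 receptor IL3RA (-1.64 ± 0.07). Among 17 chemokines and cytokines 11 were lower and 2 higher. CCL5, a chemokine for T cells and monocytes, had 15.7 and 16.1 CPM in EV against 129 and 129 CPM in sgEV (-3.02 ± 0.07, adjusted p = 1.73e-14). Adhesion genes were lower in 16 of 24 cases and higher in 3 (median -0.56). The hyaluronan receptor CD44 had 239 and 230 CPM in EV against 715 and 724 CPM in sgEV (-1.62 ± 0.04, adjusted p = 9.43e-14), and ICAM1, a ligand of leukocyte integrins, had 1.65 and 1.82 CPM in EV against 33.5 and 33.0 CPM in sgEV (-4.26 ± 0.13, adjusted p = 8.9e-13). All these genes had their EV libraries below their sgEV libraries.

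Early myeloid granule genes, a list of promyelocyte genes that also holds the surrogate light chain gene IGLL1, went the other way. Of the 15 genes tested 12 were higher in EV, IGLL1 (2.68) included, and 2 lower (median 0.48). CTSG, the granule protease cathepsin G, had 409 and 440 CPM in EV against 189 and 190 CPM in sgEV (1.16 ± 0.05, adjusted p = 8.07e-12). PRTN3, proteinase 3, had 726 and 778 CPM in EV against 369 and 379 CPM in sgEV (1.01 ± 0.04, adjusted p = 3.68e-11). ELANE, neutrophil elastase, had 367 and 386 CPM in EV against 211 and 219 CPM in sgEV (0.81 ± 0.04, adjusted p = 3.8e-10). For these proteases the EV libraries were the higher pair. PRTN3 and ELANE were lower in both sgEV libraries than in all other MV4;11 libraries, as 9 of the 15 listed genes were. This held for 12.1% of all genes and 24.2% of those at least 2-fold higher in EV. On the scale of all 10 libraries PRTN3 had 719 to 935 CPM in the others, EV included, against 368 and 378 CPM in sgEV. IGLL1, a surrogate light chain gene of early precursors, followed the table instead, with 29.9 and 33.6 CPM in EV and 46.0 and 49.3 in shEZH2, against 4.24 and 5.73 in sgEV and 4.19 to 5.72 in those labelled sgcMyc. Myeloid transcription factors were lower in EV in 13 of 20 cases and higher in 1 (median -0.32), with GATA2, a factor of stem and mast cells, at 0.317 and 0.608 CPM in EV against 22.2 and 22.2 CPM in sgEV (-5.57 ± 0.20, adjusted p = 4.24e-12).

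**Figure D3:**
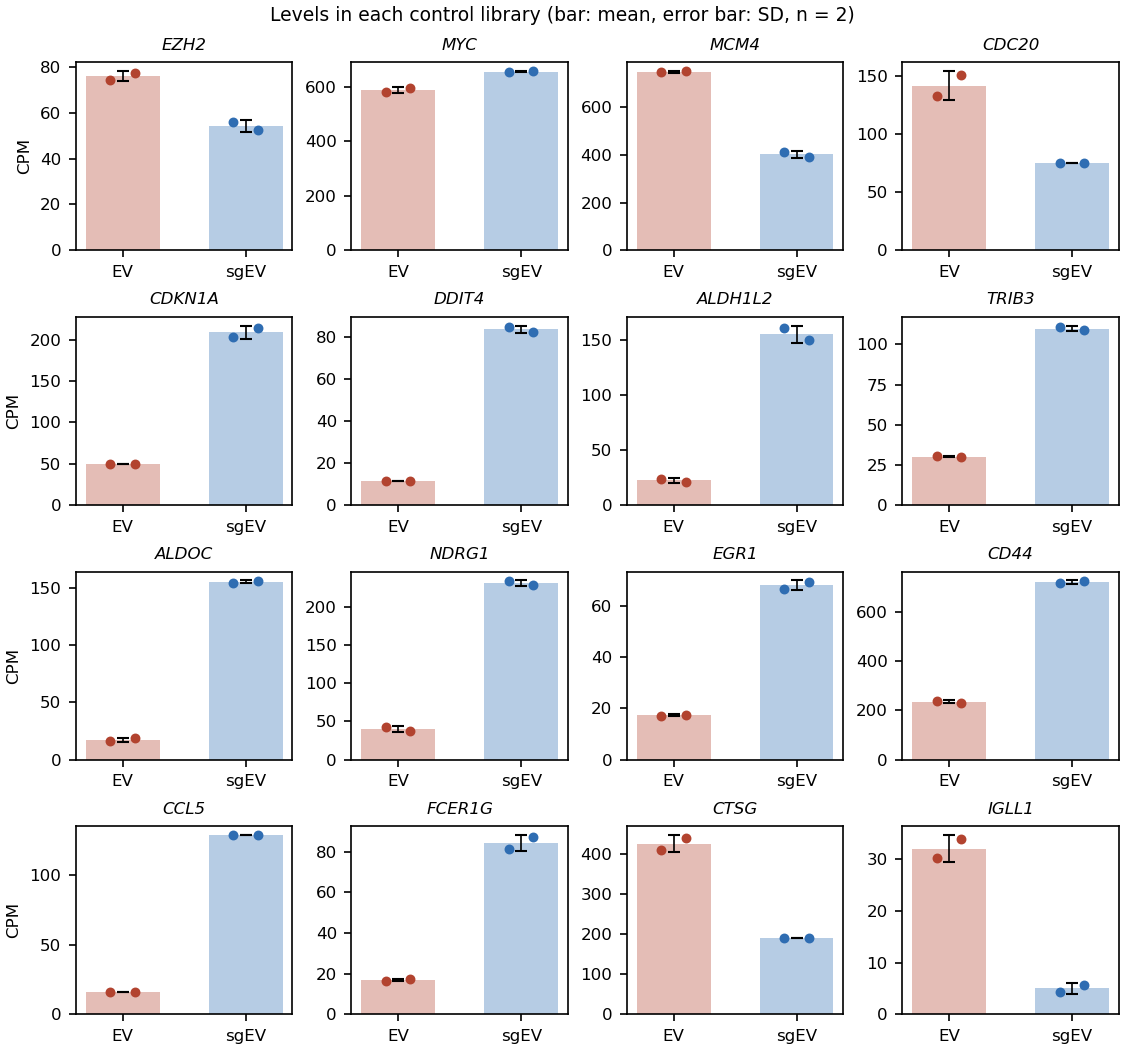
Levels of 16 genes in CPM in the EV libraries (left, red) and the sgEV libraries (right, blue), with points for libraries, bars for the mean and error bars for the SD of n = 2. Replicates lie close together in every panel; DDIT4 has 11.3 and 11.2 CPM in EV against 84.8 and 82.5 CPM in sgEV.

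Genes of DNA replication, mitosis and nuclear-encoded mitochondrial proteins were mostly higher in EV by smaller amounts. Of 46 DNA replication genes 42 were higher and 1 lower (median 0.66, against 26.3% higher over all genes). MCM4, a subunit of the replicative helicase, had 744 and 749 CPM in EV against 411 and 391 CPM in sgEV (0.90 ± 0.04, adjusted p = 7.33e-11). UHRF1, which guides maintenance DNA methylation, had 456 and 457 CPM in EV against 252 and 256 CPM in sgEV (0.84 ± 0.04, adjusted p = 8.57e-11). Both genes were higher in both EV libraries, and the licensing factor CDT1 was the member lower in EV (-0.14). Of 43 mitosis genes 41 were higher and 1 lower (median 0.49). CDC20, an activator of the anaphase-promoting complex, had 133 and 150 CPM in EV against 75.2 and 75.2 CPM in sgEV (0.91 ± 0.06, adjusted p = 5.31e-09). BIRC5, survivin, was higher by 0.81 ± 0.05 and cyclin CCNB1 by 0.69 ± 0.05. For 31 of the 43 mitosis genes both EV libraries were above all other MV4;11 libraries. This held for 9.3% of all genes and 36.4% of those at least 2-fold higher in EV. DNA repair genes were higher in 26 of 34 cases and lower in 1 (median 0.38), among them PARP1, a sensor of DNA breaks (0.54 ± 0.04). G1 cyclins and CDK inhibitors went both ways, with 10 of 21 higher and 9 lower (median 0.03, and -0.01 under spike-in scaling).

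Nuclear genes of oxidative phosphorylation were higher in EV in 51 of 54 cases and lower in 0 (median 0.46). In 34 of the 54 genes both sgEV libraries were below all other MV4;11 libraries. This held for 12.1% of all genes and 24.2% of those at least 2-fold higher in EV. In 12 both EV libraries were above all others (9.3% and 36.4%). In 26 all libraries of the shEZH2 table were above all of the sgcMyc table (18.4% and 59.7%). SDHA, the catalytic subunit of complex II, had 230 and 232 CPM in EV against 145 and 151 CPM in sgEV (0.64 ± 0.04, adjusted p = 6.71e-09). UQCRQ, a subunit of complex III, had 86.8 and 93.0 CPM in EV against 48.0 and 49.6 CPM in sgEV (0.88 ± 0.06, adjusted p = 6.51e-09). Mitochondrial ribosomal proteins were higher in 64 of 75 cases and lower in 0 (median 0.39), for example MRPS16 (0.72 ± 0.06). Genes of the mitochondrial genome did not share this direction: 6 of 13 were lower and 2 higher (median -0.03). Their summed level was 18100 and 18740 CPM in EV against 19030 and 18520 CPM in sgEV, so that the groups overlapped. All rows of the mitochondrial genome together, which are more than these 13, took 2.181% and 2.225% of gene counts in EV against 2.471% and 2.412% in sgEV. These counts depended on the libraries: 3 were lower and 0 higher without sgEV library 1, 0 higher without sgEV library 2 and 4 higher without EV library 1.

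Among 52 genes that make rRNA or assemble ribosomes 41 were higher in EV and 1 lower (median 0.36). NOLC1, a chaperone of nucleolar RNPs, had 296 and 273 CPM in EV against 125 and 121 CPM in sgEV (1.21 ± 0.05, adjusted p = 1.44e-11), and the rRNA methyltransferase FBL was higher by 0.52 ± 0.04. Cytosolic ribosomal protein genes were higher in 40 of 79 cases and lower in 0 (median 0.12), but this count depended on which library was left out. It was 72 higher without EV library 1, 7 without sgEV library 1 and 10 without sgEV library 2, and 15 were lower without EV library 2. Under spike-in scaling 20 were higher. Their share of gene counts was 11.29% and 12.08% in EV against 10.95% and 11.05% in sgEV, so that the EV libraries differed from each other by more than EV library 1 differed from sgEV. Heat shock genes were higher in 14 of 21 cases and lower in 2 (median 0.41). HSP90AA1, the inducible cytosolic HSP90, had 2120 and 2176 CPM in EV against 1340 and 1334 CPM in sgEV (0.68 ± 0.04, adjusted p = 1.53e-09), and both EV libraries were higher.

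Some genes were detected in 1 control and had no count in the other. A count of 0 in both EV libraries with at least 20 counts in each sgEV library was found for 19 named genes, and the reverse for 6. NDN, an imprinted gene of the MAGE family, had 0 and 0 counts in EV against 173 and 182 counts in sgEV, which is at least 135-fold lower when the floor is set at 3 counts over the EV libraries. C3orf14 had 0 and 0 counts in EV against 135 and 152 in sgEV (at least 109-fold lower). MRFAP1L1 had 1 and 0 counts in EV against 291 and 276 in sgEV, a ratio of 647 with a 95% counting interval of 116 to 25600. These genes were at or near 0 counts in both EV libraries and present in both sgEV libraries. In the other direction LXN, latexin, an inhibitor of carboxypeptidases, had 70 and 91 counts in EV against 0 and 0 in sgEV and was at least 47.1-fold higher. KRT18, a keratin of simple epithelia, had 9.38 and 10.4 CPM in EV against 0.448 and 0.373 CPM in sgEV (4.56 ± 0.26, adjusted p = 7.57e-10), and its partner KRT8 had 8.30 and 7.97 CPM in EV against 3.66 and 2.98 CPM in sgEV (1.29 ± 0.18). The other 4 of the 6 epithelial markers have no row, and the summed level was 17.7 and 18.4 CPM in EV against 4.10 and 3.35 CPM in sgEV. Of 10 erythroid and megakaryocyte markers 3 have rows, with a summed level of 16.5 and 17.7 CPM in EV against 41.6 and 37.4 CPM in sgEV. Only ITGA2B was called, lower in EV (-4.61 ± 0.19), while EPOR (0.06) and GP9 (0.04) were not called. The part of other cell types in these values was not tested. COL4A2, a basement membrane collagen, had 21.5 and 24.9 CPM in EV against 2.09 and 1.94 CPM in sgEV (3.52 ± 0.16), and LPHN3, an adhesion receptor, had 207 and 189 CPM in EV against 29.5 and 27.5 CPM in sgEV (2.80 ± 0.07).

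Most of these genes kept the same state in the libraries of their own table. Of the 19 genes at 0 in EV, 14 had at most 3 counts over both shEZH2 libraries and 18 were present in each of the 4 libraries labelled sgcMyc. NDN had 0 and 0 counts in shEZH2, against 263 to 278 counts in the 4 libraries labelled sgcMyc. LXN had 98 and 106 counts in shEZH2, against 1, 0, 0 and 0 in those labelled sgcMyc. OLIG2 was an exception, with 0 and 0 counts in EV against 26 and 24 in sgEV, yet 15 and 11 in shEZH2 and 6 to 12 in those labelled sgcMyc. Of the 6 genes at 0 in sgEV, 4 had at most 3 counts over the sgcMyc libraries and 2 were present in each shEZH2 library. IKBKGP1, POTEE and RHEBP2 belong to families of near-identical copies, whose reads the counting could split.

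**Figure D4:**
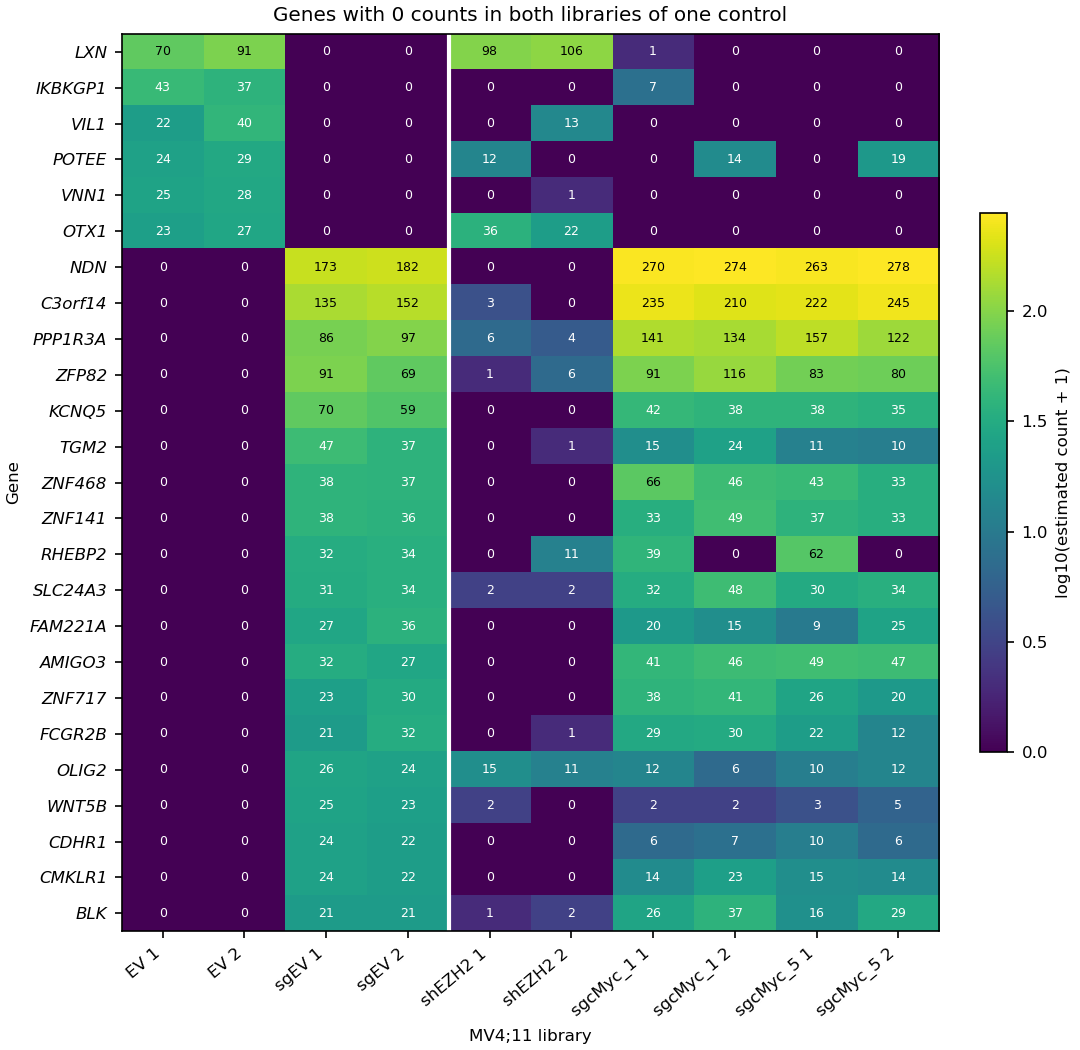
Estimated counts, rounded, of the 25 genes with 0 counts in both libraries of a control and at least 20 in each library of the other, in the 10 MV4;11 libraries, with colour for log10(count + 1). Of the 19 genes at 0 in EV, 14 have at most 3 counts over both shEZH2 libraries and 18 are present in all 4 sgcMyc libraries.

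The same contrast between the tables was read in libraries that the control comparison did not use, as shEZH2 minus the mean of the libraries labelled sgcMyc. It holds the effects of both perturbations as well and shares no library with EV minus sgEV. Of 14030 genes tested 8233 were called (58.7%), 4058 higher in shEZH2 (28.9%) and 4175 lower (29.8%). Genes called higher in EV had the same sign in 81.5% of 3570 cases and were called the same way in 64.4%. Genes called lower in EV had the same sign in 83.9% of 3639 cases and were called the same way in 67.6%. Of the 1066 genes at least 2-fold lower in EV and tested in both, 79.6% were called lower in shEZH2. Among genes not called between the controls, 59.6% of 6205 had the same sign and 27.7% were called the same way. Over all genes tested in both, 72% had the same sign and 48.3% were called the same way. Across the 13414 genes tested in both, which are not independent, the log2 fold changes had a Pearson r of 0.691.

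The gene lists were read in these libraries too. Monocyte and macrophage genes were lower in shEZH2 in 28 of 28 cases (median -1.94), cholesterol synthesis genes in 22 of 24 with 0 higher, interferon-stimulated genes in 27 of 35 with 1 higher, and immediate early genes in 17 of 23 with 0 higher. DNA replication genes were higher in 44 of 46 cases with 1 lower, and cytosolic ribosomal protein genes in 79 of 79. Other lists followed less closely. Of 32 p53 targets 17 were lower and 5 higher (median -0.17), and of 43 mitosis genes 26 were higher and 4 lower (median 0.22). Nuclear oxidative phosphorylation genes were higher in 34 of 54 cases with 1 lower (median 0.22), and heat shock genes in 13 of 21 with 6 lower. The amino acid response list did not follow: 19 of 32 genes were higher in shEZH2 and 7 lower (median 0.43), whereas all 33 were lower in EV. PHGDH was higher in shEZH2 than in the sgcMyc libraries (1.41) and lower in EV than in sgEV (-1.31). CEBPB kept its sign, at -2.57 ± 0.09 (adjusted p = 1.16e-09) in shEZH2 minus sgcMyc and -2.20 ± 0.07 in EV minus sgEV. Among granule genes, 5 of 15 were higher in shEZH2 and 7 lower (median -0.03). MNDA, a nuclear myeloid antigen, was 2.99 ± 0.34 higher in EV (adjusted p = 1.9e-06) and lower in shEZH2 (-1.44 ± 0.16, adjusted p = 1.09e-05). Over all genes tested, 18.4% were higher in all 4 libraries of the shEZH2 table than in all 6 of the sgcMyc table and 19.1% lower.

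**Figure D5:**
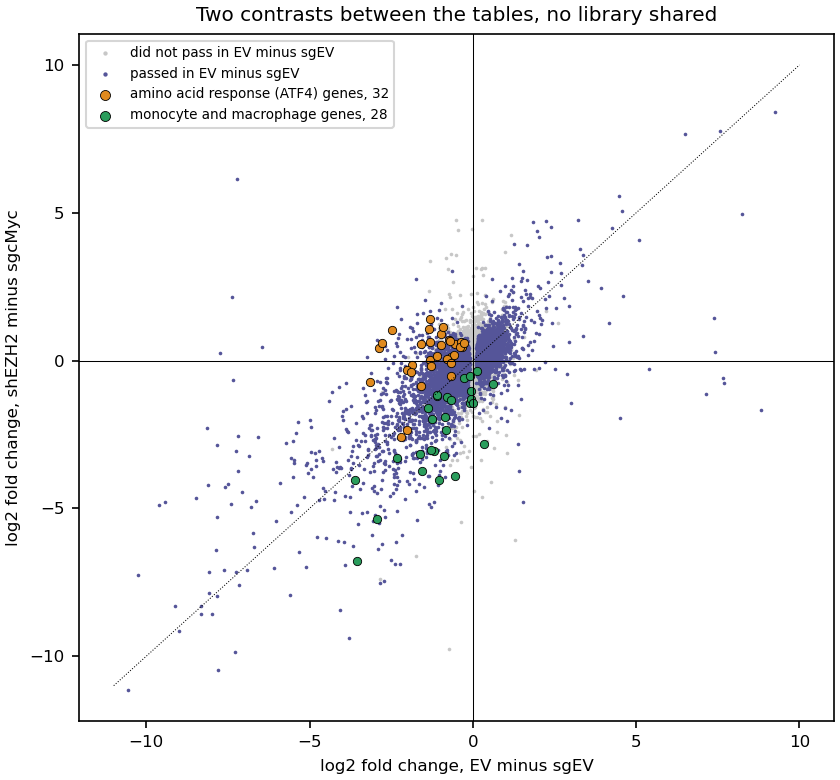
Log2 fold change of each of 13414 genes in EV minus sgEV (horizontal) and in shEZH2 minus the mean of the libraries labelled sgcMyc (vertical), which share no library; the dotted line marks equal values. Monocyte and macrophage genes (green) are mostly low on both axes, whereas amino acid response genes (orange) are all left of 0 with 19 of 32 called higher on the vertical axis.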

How the data were processed

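RNA was extracted with a Qiagen RNeasy kit and sequenced after NEBNext Ultra II library preparation, per the labels' protocols. The authors deposited estimated counts per gene (expected counts) and log2 normalised values. Tools named in the submitters' processing notes are RSEM and DESeq, with the build hg19. Aligner, versions, annotation, strand use and log2 method: not given in the sources used here. Both MV4;11 tables hold the same 15081 rows: 15025 gene rows, of which 18 carry a date in place of a symbol and were not named, and 56 spike-in rows, which stayed out of library sizes. A count of 0 has the log2 value 6.13801 in both tables. The raw values were compared across tables, and the log2 values were used only in an alternative with limma.

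Estimated counts were rounded. Genes passing filterByExpr were scaled by TMM and tested with edgeR 4.0.16 (R 4.3.3; glmQLFit with the robust step, glmQLFTest, adjusted p threshold 0.05). Each SE was derived from the F statistic, as the size of the log2 fold change over the root of F. DESeq2 1.42.0, limma 3.58.1, glmTreat and spike-in scaling were alternatives. The test was checked on simulated counts. Replicates differed by more than sampling noise (chi-square per degree of freedom 3.35 in EV and 1.44 in sgEV), so none was counted as a copy. This excess does not show that the libraries came from separate cultures. The common spread between replicates in edgeR (biological coefficient of variation) was 0.0332. Spliced transcript length from GENCODE replaced coding length. Counting intervals and floors cover counting error only.

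The libraries compared, the gene lists and the tests were chosen with earlier results of these data known. Named are EZH2 and MYC, the 12 largest differences a direction with a mean of 50 or more normalised counts in whichever group was higher, the 4 members with the smallest p of each of 36 lists, genes at 0 in both libraries of a group with at least 20 counts in each of the other, and the 8 largest a direction shared with shEZH2 minus sgcMyc. The text gives a part of these, and ATF4, ASNS, PHGDH, ENO1, CHAC1, PMVK, UBE2L6, CDT1 and KRT8 were named after their values were seen, as were the motifs. Genes with near-identical copies are uncertain, here IFITM1, NCF1, KRT8, KRT18, HLA, histone, metallothionein, ribosomal protein and mitochondrial genes and some zinc finger genes.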

Additional observations from a re-analysis of the deposited data

How the results depend on the processing

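The count of 7297 calls ranged from 5036 (DESeq2) to 7533 over the alternatives that test for any difference, and 5895 remained with spike-in scaling, of which 42.6% were higher in EV. Tested against a minimum fold of 1.5 (glmTreat, chosen after seeing the data), 1508 genes were called, 342 higher in EV and 1166 lower. The count at least 2-fold apart, 1365, became 693 with a mean of at least 50 counts, where 10785 genes were tested. It became 338 with limma on the authors' log2 values (also chosen afterwards). The cause of either drop was not tested. Leaving out 1 library gave 5618 to 7498 calls, 2738 to 3775 higher, 2880 to 3723 lower and 1276 to 1377 at least 2-fold. For shEZH2 minus sgcMyc it gave 6464 to 8671 calls, against 8233. The spike-in count of 1 became 0 with DESeq2 and 0 with the replicate block, and 0 to 3 without 1 library: 3 without EV library 2 and 0 without any other (the cause was not tested).

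Deviations of libraries with the same number were not correlated (r = -0.04), so no shared shift by number was seen. With 2 libraries a group this cannot exclude that they were handled in pairs. With the replicate block 7533 genes were called (3716 higher, 3817 lower) and 8547 for shEZH2 minus sgcMyc. No named gene changed sign under any alternative. Of the named-gene alternatives 65 lost the call and 2637 kept it; glmTreat accounts for most losses. Otherwise calls were lost for MYC, MT-ND4, HIST1H2BD, LAMP5, MT-ND5, MT-ND4L, POTEE and RHEBP2. List medians kept their sign under spike-in scaling except G1 cyclins and CDK inhibitors (0.03 against -0.01). Small counts of list members moved by over 1.5 times without 1 library: without EV library 1, monocyte genes higher in EV became 4 (from 2), glycolysis genes higher 4 (from 2), lysosomal genes higher 8 (from 5) and repair genes lower 3 (from 1). Without sgEV library 1, MHC class I genes lower in EV became 4 (from 7), PRC2 genes lower 2 (from 4), PRC1 genes higher 3 (from 5), KMT2 genes higher 2 (from 6) and glycolysis genes higher 0. Without sgEV library 2, MYC-MAX genes lower became 4 (from 8), HOXA-MEIS1 genes higher 2 (from 4), p53 targets higher 1 (from 3), nucleic acid sensors higher 3 (from 5), MHC class I genes lower 4, PRC1 genes higher 3 and glycolysis genes higher 0. Without EV library 2, PRC2 genes lower became 2. Depth limits genes with few counts: 29.3% of the 2729 genes with the lowest mean counts were called, against 71.7% of the 2728 with the highest.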

Other observations

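Several further gene groups were split between the controls. MHC class II genes were lower in EV in 9 of 12 cases and higher in 1 (median -0.73), with HLA-DQB1 at 0 and 1 counts in EV against 87 and 84 in sgEV. MHC class I genes went both ways, 10 higher and 7 lower of 20 (median 0.20): HLA-E was lower (-1.01 ± 0.04) and the proteasome activator PSME2 higher (0.75 ± 0.06). BCL2 family genes were lower in 7 of 15 cases and higher in 4, with the BH3-only genes BMF (-1.47 ± 0.06), BBC3 (-1.25 ± 0.10) and PMAIP1 (-0.77 ± 0.08) and BCL2 itself (-0.60 ± 0.05) among those lower. CCND1, cyclin D1, had 0.127 and 0.405 CPM in EV against 10.1 and 9.47 CPM in sgEV (-5.18 ± 0.31), while CDK4 was higher (0.46 ± 0.04). MYC-MAX network genes were lower in 8 of 12 cases and higher in 1, with the MYC antagonists MXI1 (-0.75 ± 0.05) and MXD1 (-0.78 ± 0.09) among those lower. The member higher in EV was MXD3 (0.67 ± 0.11). PRC1 subunits (5 higher, 7 lower of 21), KMT2 and H3K27 demethylase genes (6 higher, 8 lower of 20), HOXA-MEIS1 genes (4 higher, 6 lower of 17), lysosomal genes (5 higher, 12 lower of 25), nucleic acid sensors (5 higher, 14 lower of 26, and 3 higher without sgEV library 2), ER chaperones (7 higher, 9 lower of 24), histones (0 higher, 5 lower of 13) and detoxification genes (9 higher, 4 lower of 17) also held genes called in EV minus sgEV, beside 26.3% higher and 27.1% lower over all genes tested.

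Median log2 fold changes per chromosome lay between -0.06 (chromosome 19) and 0.07 (chromosome 22), and over 480 runs of 25 neighbouring genes the medians lay between -0.45 and 0.34. The lowest run was on chromosome 21, with 14 of 25 genes lower in EV and 4 higher. The median was -0.12 in the 2470 genes with the longest spliced transcripts and 0.07 in the 2470 with the shortest, and the part of length in the list results was not tested.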
